A study of Mus musculus with 6 samples.

Results

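Carbonic anhydrases were described across 3 cell populations of mouse skin, labelled wild-type or double knockout for the Polycomb methyltransferases Ezh1 and Ezh2. The 8 genes Car2, Car3, Car4, Car6, Car8, Car12, Car13 and Car14 were taken with all of their 18 probe sets that name a single gene, out of 18193 genes and 45101 probe sets on the array. They were chosen with these data in view, because Car2 differed in opposite ways between populations and Car3 was higher in mutant matrix, so those differences are given as a description.

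RNA came from basal epidermal cells, from hair matrix cells and from outer root sheath (ORS) cells, all FACS-sorted from mouse skin at 14 days of age, on a mixed C57B6 and CD1 background. Each population was taken from mice labelled Ezh1/2 WT and from mice labelled Ezh1/2 2KO, a double knockout by that label. Each of the 6 groups was read on 1 Affymetrix array. The 2KO basal epidermal RNA came from females and the other 5 samples from both sexes. Differences that involve that array cannot be told apart from a difference of sex. The cell type in which the deletion was made, the number of mice pooled and any sharing of mice between samples are not stated in the labels. There are no replicates, so no difference below has a replicate check, no p-value is given, and the number of arrays limits the precision.

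Carbonic anhydrases are zinc enzymes that interconvert carbon dioxide and water with bicarbonate and a proton, and so help cells to move acid and carbon dioxide. Car2 is a fast cytosolic enzyme, Car13 is another cytosolic enzyme, and Car3 is a slow cytosolic form that is abundant in skeletal muscle, fat and liver. Car8 belongs to the family by sequence but has no carbon dioxide hydration activity. Car4 is anchored to the cell surface by a lipid, Car12 and Car14 span the membrane with the active site outside the cell, and Car6 is secreted. Polycomb repressive complex 2, whose catalytic subunits are Ezh1 and Ezh2, methylates histone H3 on lysine 27 at genes that are kept silent.

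Values are MAS5 signals, which are linear intensities with 1 value per probe set and array. Where a gene has several probe sets, the one brightest on average over the 6 arrays (on the log2 scale) stands for it. Signals under 83.2, the median of all signals on the 6 arrays, were treated as a floor: a gene under it on both arrays of a comparison counted as not measured, and where 1 side lay under it the fold is a minimum, given with the words at least. A difference was called when it reached 2-fold, the fold named in the series text. Since cells were sorted in bulk, fewer cells of one type and less RNA per cell cannot be told apart.

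The arrays were checked against their labels. Ezh2 read 432 on the 2KO and 2563 on the WT basal array, 1725 and 3578 in matrix, and 378 and 2151 in ORS, and so was 5.93-fold, 2.07-fold and 5.69-fold lower. Ezh1 was also lower, at least 4.82-fold (basal epidermis), 3.54-fold (matrix) and at least 4.57-fold (ORS); whether the probes lie in the deleted parts is not known. Cdkn2a, a cell cycle inhibitor gene known as a target of the complex, was at least 28.7-fold, 15.1-fold and 34.1-fold higher. The summed signal of 9 matrix markers was 59164 and 45072 on the WT and 2KO matrix arrays and between 1090.0 and 3555 on the other 4. The summed signal of 6 basal layer markers was between 82088 and 102955 on the basal and ORS arrays, 24356 in WT matrix and 43626 in 2KO matrix. The summed signal of 8 ORS markers was close in WT ORS and WT basal epidermis (54900.2 and 49228), but 3 of the 8 were lower in WT basal epidermis and 0 higher: Lhx2 30.8-fold, Tcf7l1 9.44-fold and Cd34 at least 12.4-fold. Between the 2KO arrays 6 of the 8 were lower in basal epidermis than in ORS. In WT matrix 6 of the 8 were lower than in WT ORS and 1, Krt75, was 18.0-fold higher.

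Of the 8 members, 3 were above the floor on all 6 arrays: Car2, Car12 and Car13. Car3 was above it on 3 arrays, all of them 2KO, Car6 on 2, both WT, and Car14 on 1. Car4 and Car8 were under the floor on all 6 arrays. Between 3 and 5 members were above the floor on any one array.

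**Figure D1:**
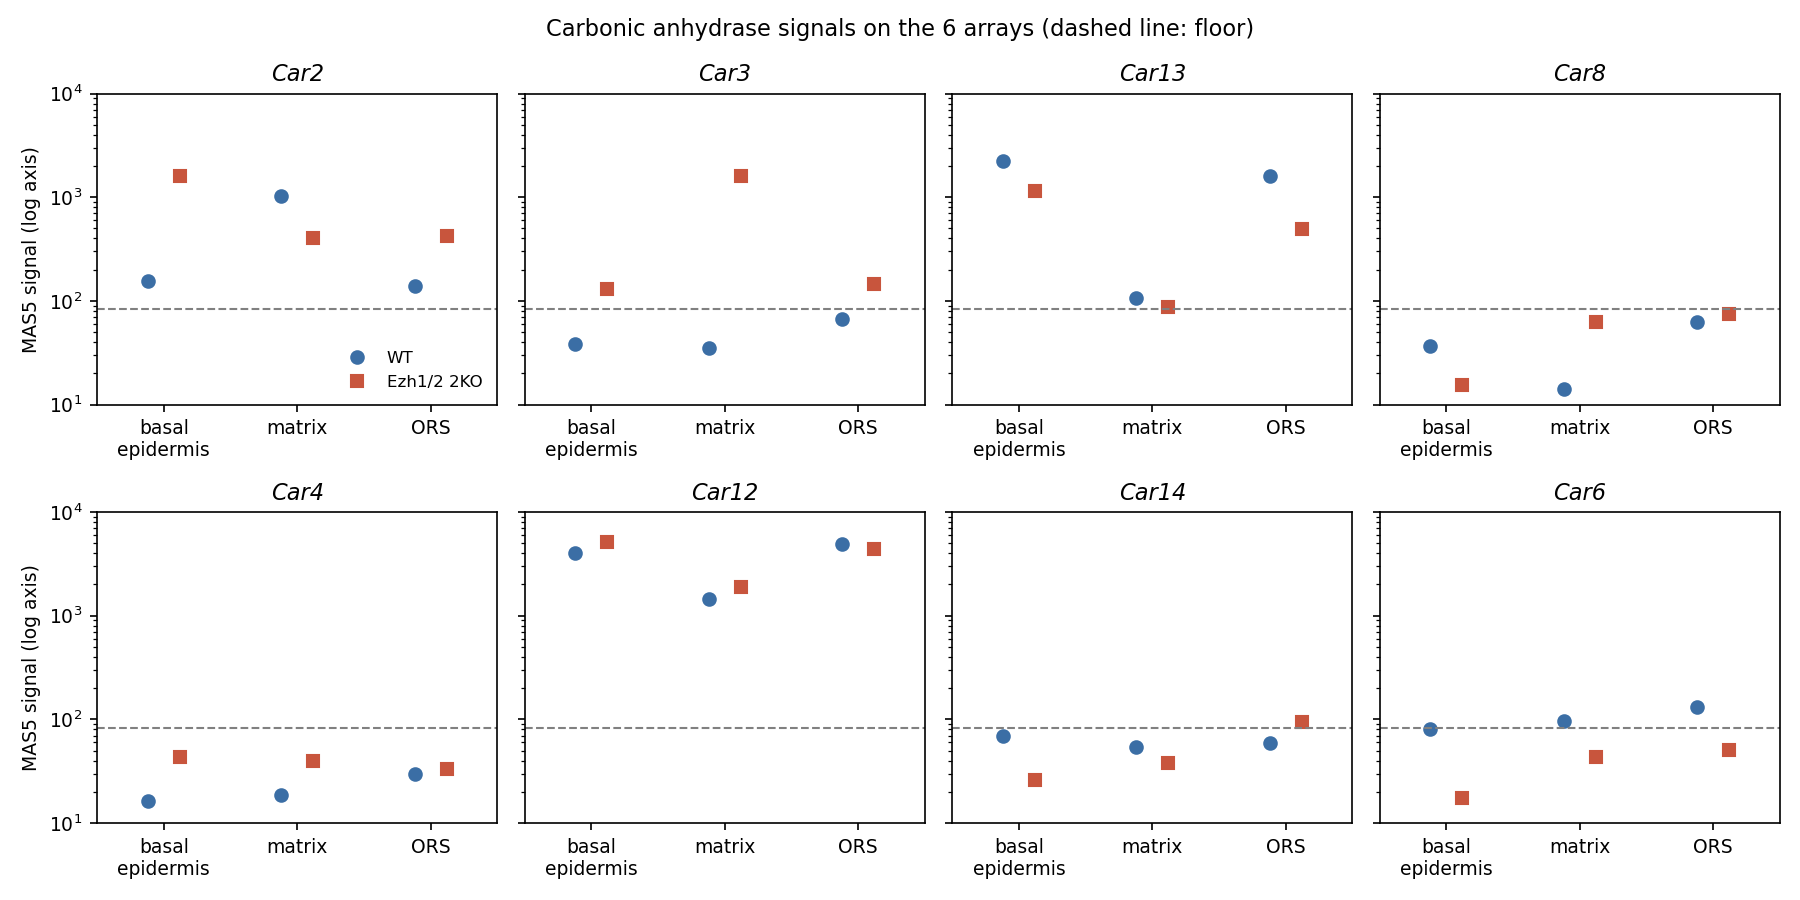
MAS5 signal (vertical log axis) of the 8 carbonic anhydrases in basal epidermis, matrix and ORS, with 1 point per array, circles for WT and squares for Ezh1/2 2KO. The dashed line is the floor of 83.2; Car2 and Car3 have their highest signals on 2KO arrays (1607 in basal epidermis and 1614 in matrix), Car13 was low in matrix of both genotypes, and Car4 and Car8 lie under the line throughout.

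In WT skin, 3 members were spread unevenly over the populations. Car2 was a matrix gene there, at 1022 in matrix, 155 in basal epidermis and 140.4 in ORS. The matrix array stood 6.58-fold above basal epidermis and 7.28-fold above ORS, while basal epidermis and ORS differed by 1.11-fold. Car13 had the opposite order, at 2241 in basal epidermis, 1597 in ORS and 107 in matrix, so that matrix, just above the floor, was 21.0-fold under basal epidermis and 14.9-fold under ORS.

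Car12 had the same WT order at its lower end, with 4909.7 in ORS, 4041 in basal epidermis and 1454 in matrix. Matrix was 2.78-fold under basal epidermis and 3.38-fold under ORS, and the 1.21-fold gap between basal epidermis and ORS was under 2-fold. With the mean over its 3 probe sets the call against basal epidermis ended (a bound of 0.96 on the log2 scale), and its second probe set alone gave 1.73-fold there and 3.15-fold against ORS. Counted over the members measured, 2 of 4 were called higher and 1 lower in WT basal epidermis than in WT matrix, where 13.8% of all measured genes were called higher and 11.3% lower. In WT matrix against ORS 1 of 4 was higher and 2 were lower, against 8.6% and 13.9% of all genes. Between WT basal epidermis and ORS 0 of 4 members were called, against 4.15% of all genes higher and 5.88% lower. Car6 was the other member measured there, at 131 in ORS, 96.4 in matrix and 80.3 in basal epidermis, all within 2-fold of each other or of the floor.

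In 2KO skin the order of Car2 was different. It read 1607 in basal epidermis, 426 in ORS and 403 in matrix, so that basal epidermis stood 3.99-fold above matrix and 3.77-fold above ORS, and matrix and ORS differed by 1.06-fold. Car12 kept matrix as its lowest population, with 1882 in matrix, 5131 in basal epidermis and 4368 in ORS. These 2KO calls also ended with the mean over probe sets (log2 ratios of 0.76 for basal epidermis over matrix and -0.80 for matrix over ORS), and the second probe set gave 2.23-fold and 1.09-fold. Car13 also kept its order, with 1138 in basal epidermis, 489 in ORS and 87.3 in matrix, and its basal epidermis signal was now 2.33-fold above ORS, against 1.40-fold in WT. Car3, not measured between WT populations, was 12.4-fold higher in 2KO matrix than in 2KO basal epidermis and 11-fold higher than in 2KO ORS. Of the members measured within 2KO, 3 of 4 were called higher and 1 lower in basal epidermis than in matrix (7.29% and 6.9% of all genes), 2 of 5 higher and 0 lower in basal epidermis than in ORS (4.32% and 6.73%), and 1 of 5 higher and 2 lower in matrix than in ORS (5.2% and 8.61%).

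Car2 signal was higher on the 2KO than on the WT array in basal epidermis and ORS and lower in matrix. For basal epidermis the 2KO RNA was from females and the WT RNA from both sexes, so genotype and sex cannot be told apart. In basal epidermis Car2 read 1607 in 2KO and 155 in WT, 10.3-fold higher, and 21 of the 11527 measured genes had a larger ratio. In ORS it read 426 and 140.4, 3.04-fold higher, with 366 of 11994 genes further up. In matrix it read 403 in 2KO and 1022 in WT, 2.54-fold lower, with 64 of 11661 genes further down. WT matrix, the highest WT array, fell between the 2KO basal array and the other 2KO arrays.

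The ratio of Car2 in basal epidermis was 26.3-fold above its ratio in matrix, and 10 of 10960 genes measured in both had a larger difference. Of these genes 12, or 0.109%, were called higher in basal epidermis and lower in matrix, and 6 of 11199, or 0.0536%, higher in ORS and lower in matrix. Both differences chose Car2, so nothing is read from these shares, and no difference between populations could be tested with 1 array per group. A single probe set reads Car2, so there is no second one to compare it with. With the floor raised to the 75th percentile of all signals the ratio in basal epidermis was a bound of 1.79 on the log2 scale in place of 3.37, and in ORS both signals lay under that floor, which ends the call.

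Markers of the populations moved beside Car2. Of all measured genes, 6.59%, 9.03% and 8.16% were called higher in basal epidermis, matrix and ORS, and 4.09%, 1.62% and 4.75% lower. In 2KO basal epidermis, 3 of 8 measured matrix markers were at least 2-fold lower (Krt25 13.9-fold, Krt35 at least 10.7-fold, Krt71 at least 3.00-fold) and 1, the WNT effector Lef1, was 3.14-fold higher; their summed signal was 1090.0 in 2KO and 3143 in WT. In ORS the same 3 keratins were between 2.57-fold and 7.79-fold lower and Lef1 was 5.06-fold higher. In 2KO matrix Msx2 (2.78-fold) and Dlx3 (2.21-fold), both transcription factors of the hair bulb, were lower and the signalling ligand Shh was 2.86-fold higher, while the basal layer genes Krt14, Itgb4 and Krt5 were between 2.10-fold and 2.87-fold higher. Of the 8 ORS markers, 4 were higher on the same array: Sox9 (12.6-fold), Nfatc1 (9.44-fold), Tcf7l1 (3.68-fold) and Krt17 (3.15-fold). In 2KO basal epidermis 3 of them were higher, Tcf7l1 (3.78-fold), Lhx2 (3.69-fold) and Cd34 (at least 2.37-fold), and in ORS 2, Nfatc1 (2.44-fold) and Krt75 (2.20-fold). However, Krt75 was higher in WT matrix (7331) than in WT ORS (407). Nfatc1 was close in WT basal epidermis (1203) and WT ORS (1291). The part of cell makeup in the Car2 differences was not tested. Red cells also carry Car2; the 4 erythroid markers matched were all under the floor on the 3 2KO arrays, with a summed signal between 83.6 and 92.5 there and between 112 and 114 on the WT arrays.

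**Figure D2:**
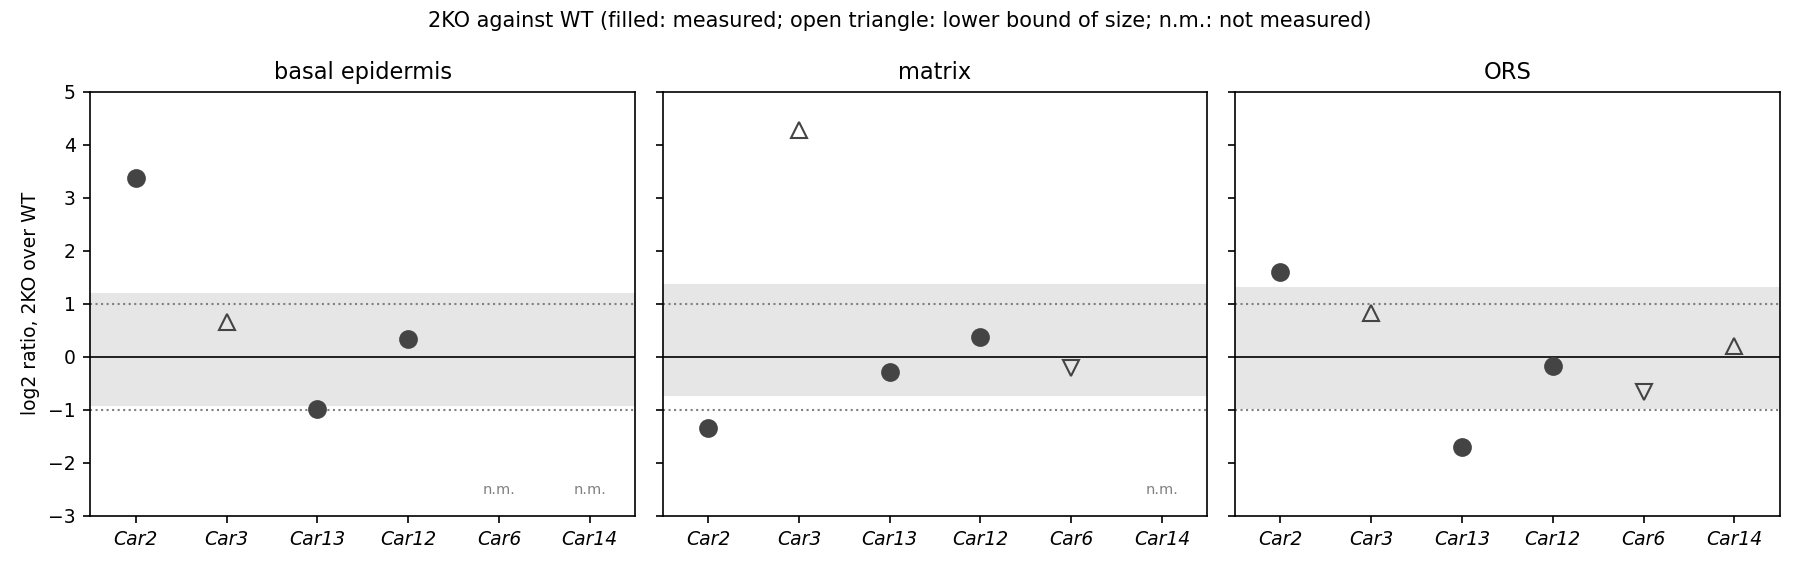
Log2 ratio of 2KO over WT for the 6 members measured in any population, with 1 value per gene and panel. Filled circles are measured ratios, open triangles are lower bounds on the size, n.m. marks genes under the floor on both arrays, dotted lines mark 2-fold, and the grey band holds the range from the 5th to the 95th percentile of all measured genes; Car2 lies at 3.37, -1.34 and 1.60, and Car3 reaches a bound of 4.28 in matrix.

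Car3 was detected above the floor on 2KO arrays only. It read 131 in 2KO and 38.8 in WT basal epidermis, 1614 and 35.5 in matrix, and 147 and 67.7 in ORS. In matrix it was at least 19.4-fold higher in 2KO. The bounds in basal epidermis (at least 1.57-fold) and ORS (at least 1.76-fold) did not reach 2-fold. All of these sizes depend on the floor: lowering the floor to the 25th percentile of all signals gave log2 ratios of 1.75 for basal epidermis, 5.51 for matrix and 1.12 for ORS, in place of 0.65, 4.28 and 0.82. With the floor raised to the 75th percentile the bound in matrix was 1.80 on the log2 scale, and basal epidermis and ORS gave no value.

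The probe sets of Car3 differed in strength. The second brightest read 217 in 2KO matrix and 36.8 in WT matrix, at least 2.61-fold higher, and was under the floor on the other 4 arrays. The other two were under the floor on all arrays, with their highest signals at 30.5 and 15.1. Both probe sets that crossed the floor had their maximum on the 2KO matrix array. With the mean over all 4 probe sets Car3 lay under the floor on both matrix arrays, which ends the call, and its calls between 2KO populations ended too.

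Skeletal muscle markers were higher on the same array as Car3. Of 13 muscle genes, 10 were measured in matrix and 6 were at least 2-fold higher in 2KO: the actin Acta1 (1153 against 88.7, 13-fold), the myosin light chains Myl1 (at least 10-fold) and Mylpf (2.04-fold), and the troponin genes Tnnc2, Tnni2 and Tnnt3 (at least 5.25-fold, 3.14-fold and 2.29-fold). The median log2 ratio of the list in matrix was 1.11, against 0.03 over all measured genes, of which 9.03% were at least 2-fold higher. Of the 10 measured, only 3 were above the floor in WT matrix. The rest were measured through the 2KO array alone and could only come out higher. The count of 6 and the median are thus partly set by the floor, and nothing is read from them beside all genes. The summed muscle signal was 4052 in 2KO matrix and between 613 and 791 on the other 5 arrays, and 10 of the 13 genes were above the floor in 2KO matrix against 1 to 3 elsewhere. The muscle creatine kinase Ckm was under the floor in both matrix samples, at 18.6 in 2KO and 61.9 in WT, as were Myh4 and Casq1. No list member was at exactly 0.

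Other lineages were also higher in 2KO matrix, where 9.03% of all measured genes were at least 2-fold higher. Of the measured markers, 7 of 8 for fibroblasts and 7 of 9 for immune cells were higher (median log2 ratios 1.64 and 1.62). With arrays scaled to the hybridisation controls, these medians were 0.82 and 1.32, and that of the muscle genes 0.69. Summed fibroblast signal was 38585 in 2KO and 20563 in WT matrix, and immune signal 5957 and 1308. On the basal epidermis and ORS arrays these sums lay between 21783 and 39141 for fibroblasts and between 4518 and 8882 for immune cells. So WT matrix had the lowest sum of both lists, and 2KO matrix lay within the range of the other populations. Immune genes above the floor numbered 5 in WT matrix and 9 in 2KO matrix, so some could only come out higher. Of the 8 adipocyte genes matched, the defining Adipoq, Cidec and Lep were under the floor on every array. Only 2 were measured in matrix, Fabp4 (1939 in 2KO and 8816 in WT) and Lpl (245 and 759), both lower in 2KO. The summed adipocyte signal, 2382 in 2KO and 9678 in WT, was therefore mostly Fabp4. The part of muscle RNA in the Car3 signal was not tested.

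**Figure D3:**
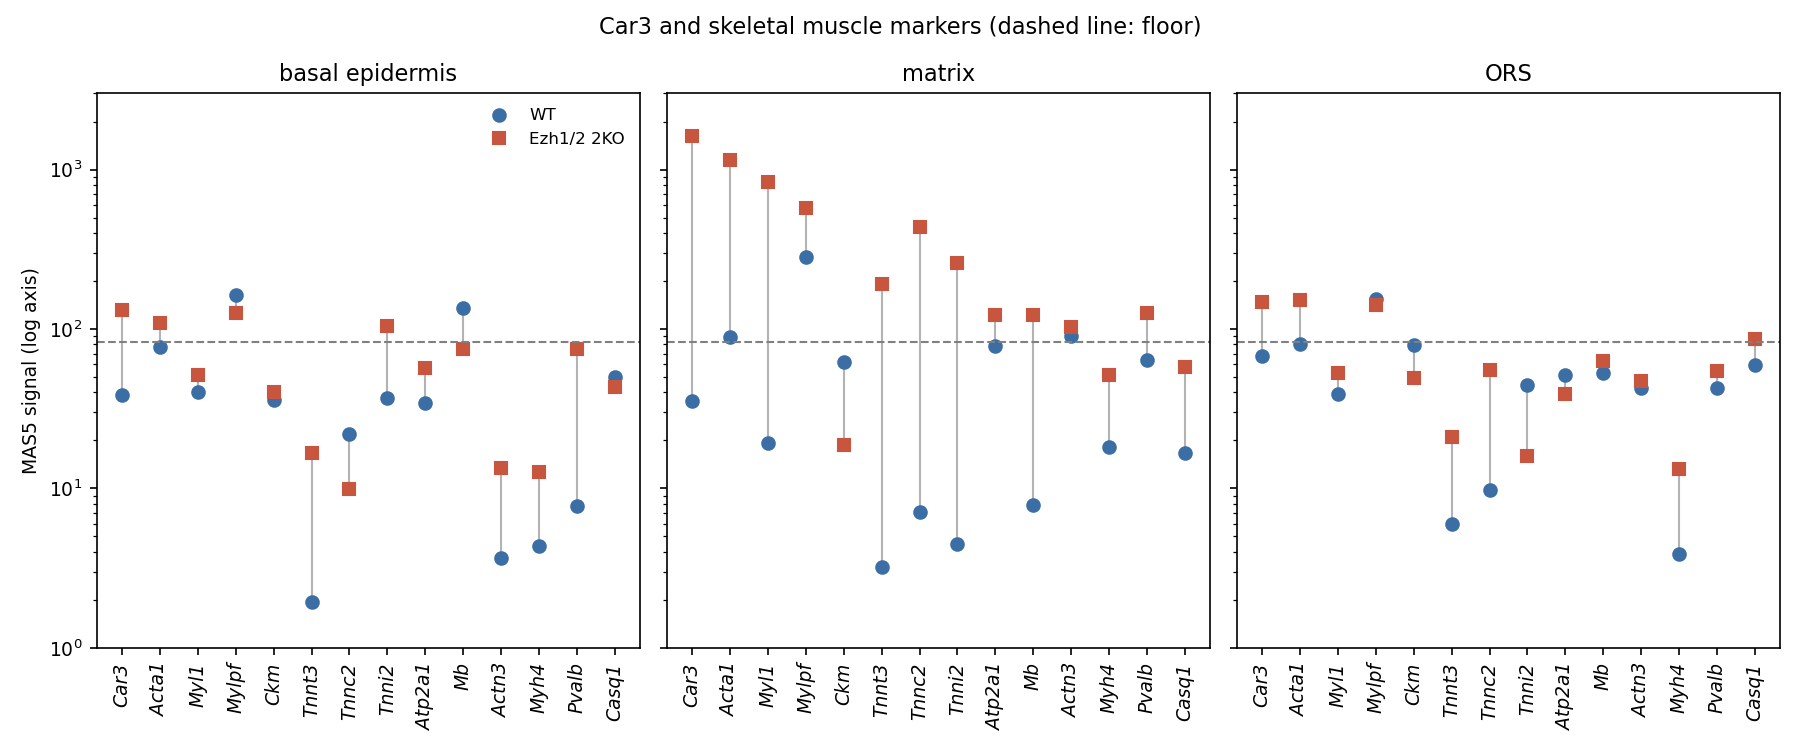
MAS5 signal (vertical log axis) of Car3 and 13 skeletal muscle markers on the WT (circles) and 2KO (squares) array of each population, each pair joined by a line. Car3 (1614), Acta1 (1153) and Myl1 (834) lie far above the dashed floor of 83.2 on the 2KO matrix array, and most points of the other populations lie under it.

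Car13 was lower on the 2KO array in ORS and, by slightly under 2-fold, in basal epidermis. In ORS it read 489 in 2KO and 1597 in WT, 3.26-fold lower, with 161 of 11994 genes further down. In basal epidermis it read 1138 and 2241, 1.97-fold lower, with 493 of 11527 genes further down. There the 2KO RNA was from females and the WT RNA from both sexes. In matrix both signals were close to the floor, at 87.3 and 107.

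The other 2 probe sets of Car13 had the same direction in basal epidermis and ORS. In basal epidermis they read 635 against 1288 (2.03-fold lower) and 147 against 379 (2.58-fold lower). In ORS they read 295 against 896 (3.03-fold lower) and 54.3 against 334 (at least 4.01-fold lower). In matrix the second probe set read 101 in 2KO and 74.6 in WT, the reverse of the first, and the third was under the floor. So the 3 probe sets spanned 1.97-fold to 2.58-fold in basal epidermis, on both sides of the 2-fold line. Sebocyte genes were lower in ORS beside Car13, with 7 of 8 at least 2-fold lower, against 4.75% of all measured genes. Elovl3 was 9.37-fold and Scd3 8.91-fold lower, with a summed sebocyte signal of 20641 in 2KO and 67226 in WT. In basal epidermis 2 of 7 measured sebocyte genes were lower (4.09% of all genes), with sums of 19102 and 23433. In ORS 2 of 3 measured adipocyte genes were lower too, Lpl 6.36-fold and Pparg 6.13-fold, and Fabp4 was 1.76-fold lower, within 2-fold. The defining Adipoq, Cidec and Lep were under the floor on both ORS arrays, as were Retn and Acvr1c. The part of sebaceous or fat cells in the Car13 difference was not tested.

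**Figure D4:**
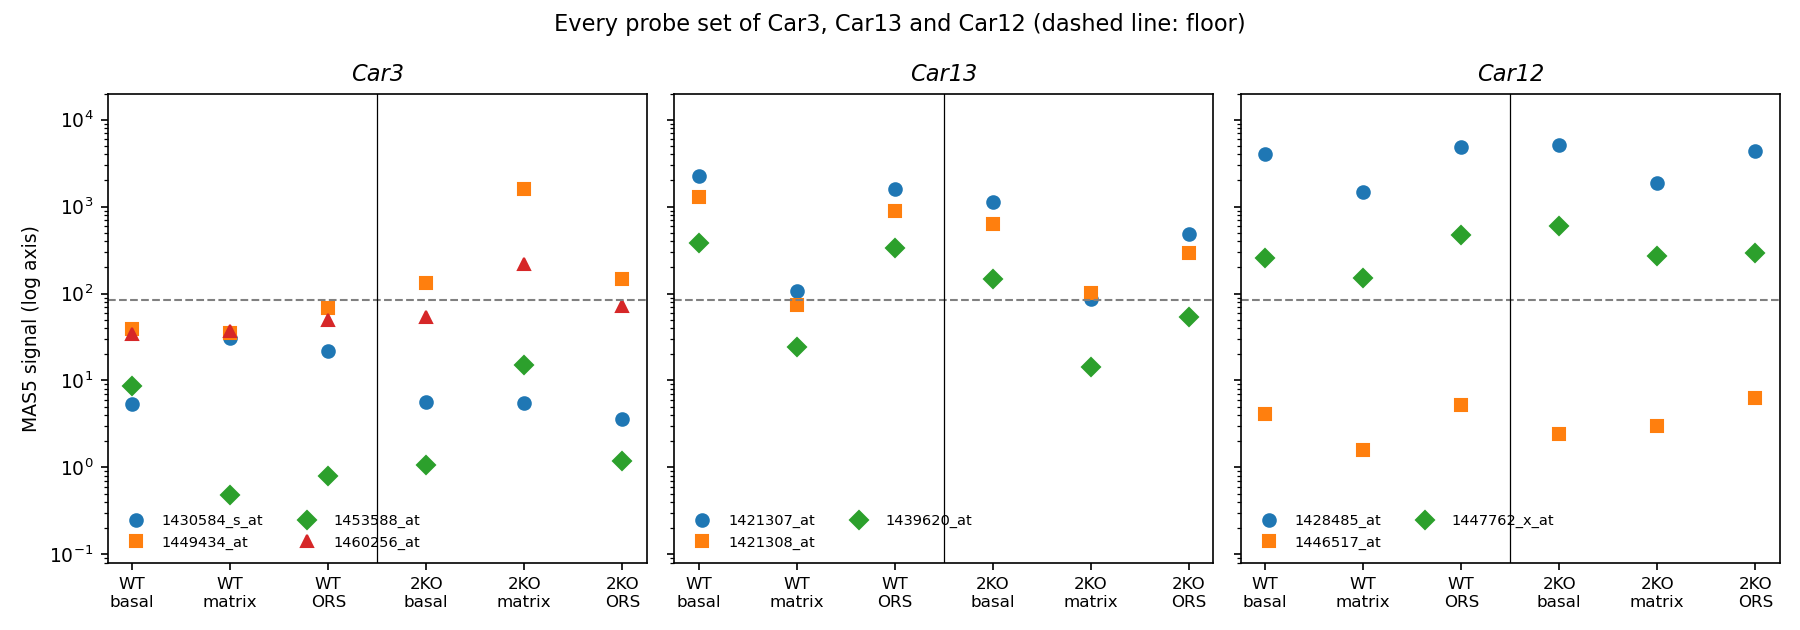
MAS5 signal (vertical log axis) on the 6 arrays for every probe set of Car3, Car13 and Car12, with 1 marker shape per probe set and WT arrays left of the vertical line. The 3 Car13 probe sets are lower in 2KO than in WT basal epidermis and ORS, only 2 of the 4 Car3 probe sets cross the dashed floor, and 1 Car12 probe set stays between 1.59 and 6.26 on all arrays.

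Car12, the transmembrane enzyme, stayed within 2-fold in every population. It read 5131 in 2KO and 4041 in WT basal epidermis (1.27-fold higher), 1882 and 1454 in matrix (1.29-fold higher), and 4368 and 4909.7 in ORS (1.12-fold lower). The direction in matrix turned when arrays were scaled to the hybridisation controls, with a log2 ratio of -0.26 in place of 0.37. Its second probe set, which can cross-hybridise by its _x_at suffix, read 601 against 259 in basal epidermis (2.32-fold higher), 270 against 150 in matrix (1.80-fold higher) and 295 against 471 in ORS (1.60-fold lower), with the same directions and larger sizes. The third read no more than 6.26 on any array.

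The remaining members carried little signal. Car6, the secreted enzyme, had its lower signal on the 2KO array of each pair, at 17.6 against 80.3 in basal epidermis (both under the floor), 43.2 against 96.4 in matrix (at least 1.16-fold lower) and 51.2 against 131 in ORS (at least 1.58-fold lower). With the floor lowered to the 25th percentile its log2 ratios in matrix and ORS were -1.16 and -1.36. Car14 was above the floor only in 2KO ORS, at 95.4 against 59.5 in WT. The 2 probe sets of Car4 read between 3.23 and 43.4, and the 3 of Car8 between 1.94 and 75. The maximum of Car4 was in 2KO basal epidermis for its brighter probe set and in 2KO matrix for the other, both under the floor.

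In all, 1 of 4 measured members was called higher and 0 lower in basal epidermis, against 6.59% and 4.09% of all measured genes. In matrix 1 of 5 was higher and 1 lower, against 9.03% and 1.62%, and in ORS 1 of 6 was higher and 1 lower, against 8.16% and 4.75%. The members were chosen on these comparisons, so nothing is read from the shares. Their median log2 ratios were 0.50, -0.21 and 0.01 in basal epidermis, matrix and ORS, beside 0.04, 0.03 and 0.01 over all genes.

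Car13, Car1, Car3 and Car2 lie next to each other in this order on mouse chromosome 3 in the RefSeq annotation of GRCm38.p6, and Car14 is elsewhere on the same chromosome. The neighbours differed in pattern: Car13 was lower in 2KO ORS, Car1 was under the floor on every array (8.75 to 26.4), Car3 stood out in 2KO matrix, and Car2 was higher in 2KO basal epidermis and ORS. Outside the cluster next to Car13, Rbis and E2f5 were within 2-fold in all 3 populations, with log2 ratios between -0.76 and 0.48. These flanking genes were named by position.

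Genes with the most similar pattern were taken by the smallest root mean square difference of centred log2 signal over the 6 arrays. Signals under the floor were first set to it, and only genes with a range of at least 2-fold were candidates. The result is a description of 6 points, each pair of genes sharing the same arrays. For Car2 the nearest genes were Sptssb (difference 0.39 on the log2 scale, Pearson r 0.957), 1700007K13Rik (0.40, r 0.974) and Nme4 (0.48, r 0.973). Sptssb, for a small subunit of serine palmitoyltransferase, read 983 in 2KO and 55.5 in WT basal epidermis, 128 and 607 in matrix, and 281 and 103 in ORS. For Car3 the nearest were the muscle genes Acta1 (0.21, r 0.997) and Myl1 (0.41, r 0.976), and Prr9 (0.57, r 0.926). Car3 lay under the floor on the WT arrays, and Myl1 on every array but 2KO matrix. The values for Acta1 and Myl1 thus rest largely on the 2KO matrix array. For Car13 the nearest were Cdh13 (0.35, r 0.981), the immunoproteasome subunit gene Psmb8 (0.37, r 0.993) and Ang (0.40, r 0.977). Psmb8 read 1890 in 2KO and 5025 in WT basal epidermis, 282 and 362 in matrix, and 1160 and 3100.1 in ORS.

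The other 8 carbonic anhydrases with a probe set carried weak signals, the highest of them 238. Car9, a membrane enzyme known as a target of hypoxia signalling, was 2.22-fold higher in basal epidermis (218 against 98.1), and read 231 against 238 in ORS. In matrix Car9 read 84.3, just above the floor, against 5.70, and so was at least 1.01-fold higher. It was the 1 of 4 measured members of that list called in basal epidermis, where 6.59% of all measured genes were higher. In matrix and ORS 0 of 3 and 0 of 5 were called.

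Genes that move bicarbonate, protons and lactate were taken as the surroundings of the pathway. From the bicarbonate transporter families Slc4 and Slc26, 11 genes were matched, and 5, 5 and 6 were measured in basal epidermis, matrix and ORS. In that order 0, 1 and 1 were higher and 0 lower: Slc26a6 2.13-fold in matrix and Slc4a11 2.04-fold in ORS. The shares of all measured genes were 6.59%, 9.03% and 8.16% higher and 4.09%, 1.62% and 4.75% lower. The anion exchanger Slc4a2 read 622 in 2KO and 599.5 in WT basal epidermis, 1043 and 638 in matrix, and 1052 and 802 in ORS. The medians of the list were 0.06, 0.71 and 0.06 on the log2 scale; the first and the last turned sign when arrays were scaled to a common median or to the hybridisation controls, and the last also with quantile normalization, and with the hybridisation controls the matrix median was 0.08.

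Of 11 matched genes of proton and lactate export and linked transport, 1 of 9 measured was higher and 1 lower in basal epidermis, 4 of 8 were higher and 0 lower in matrix, and 1 of 8 was higher and 0 lower in ORS. Among all measured genes 6.59%, 9.03% and 8.16% were higher and 4.09%, 1.62% and 4.75% lower. Atp1b1, the beta subunit of the sodium-potassium pump, was higher in all 3, by 3.16-fold, 2.83-fold and 3.30-fold. The lactate transporter Slc16a1 had the population order of Car13 at its lower end, with 206 in WT matrix against 6803 in basal epidermis and 9269.9 in ORS, and was 5.11-fold higher in 2KO matrix. The water and glycerol channel Aqp3 was 3.70-fold and the scaffold gene Slc9a3r1 2.07-fold higher in 2KO matrix, and the transporter Slc16a7 was 2.08-fold lower in 2KO basal epidermis. The medians of the list were 0.20, 0.83 and -0.33. With arrays scaled to the hybridisation controls the matrix median over all genes was -0.58, in place of 0.03.

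Hypoxia and glycolysis genes were all measured in the 3 populations, 17 of 17. In basal epidermis 1 was higher, the glycolytic regulator Pfkfb3 (2.41-fold), and 0 lower (6.59% and 4.09% of all measured genes). In matrix 5 were higher and 0 lower (9.03% and 1.62% of all genes), among them Ndrg1 (4.60-fold), Pfkfb3 (3.41-fold) and Hk2 (2.33-fold). In ORS 2 were higher, Ndrg1 (2.84-fold) and Pfkfb3 (2.42-fold). There 1, the oxygen sensor Egln3, was 2.04-fold lower (8.16% of all genes were higher and 4.75% lower). The medians were 0.28, 0.77 (0.14 with arrays scaled to the hybridisation controls) and -0.03. In WT, 10 of the 17 were higher and 1 lower in basal epidermis than in matrix and 9 were lower in matrix than in ORS, where 13.8%, 11.3% and 13.9% of all measured genes were called.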

How the data were processed

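RNA of 6 samples, 1 per population and genotype, was hybridised to Affymetrix arrays of 45101 probe sets, 64 of them controls. The authors deposited linear MAS5 intensities, with background subtraction of the images per the series text and MAS5 named in the submitters' processing notes; the version and the detection calls are not given in the sources used here. On all 6 arrays the deposited values share a 2% trimmed mean (500.003), so arrays were scaled to one total and a shift of most genes cannot be seen. Of the non-control probe sets 34945 name 1 gene in the platform annotation, and those that name several (932) or are not listed (9160) were left out. Gene values, the floor and the calls were computed as stated above with Python 3.11.15, pandas 2.3.3 and NumPy 2.4.6, with no further scaling. No test was made, since each group has 1 array and populations are not replicates.

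Members and lists (17 lists, 147 of 167 entries matched) were chosen with earlier results of these data known. All members were named, with at most 4 called genes per list and comparison, and the 3 most similar genes for members with a range of at least 4-fold; levels such as Slc4a2 and Ckm were named after their values were seen. The calculation was tested on simulated data, with 3-fold and 6-fold changes in genes well above the floor and an assumed noise. In each population 99% and 100% of them were called. That test checks the code only and does not cover signals near the floor or the spread between arrays. The 8 alternatives changed the scaling, the floor (percentiles 25 and 75, or none with a pseudocount of 16) and the probe sets.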

Additional observations from a re-analysis of the deposited data

Results flagged for a closer look

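Car2 went opposite ways in different populations. Its log2 ratio of 2KO over WT was 3.37 in basal epidermis and -1.34 in matrix, a difference of 4.72, and 1.60 in ORS, which lay 2.95 above matrix. Each ratio rests on 1 array per genotype, and neither difference was tested. The basal ratio also sets RNA from females against RNA from both sexes. The same opposite directions were among the reasons for choosing the gene.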

How the results depend on the processing

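No paired analysis was possible because each comparison lies within 1 population, where each genotype has 1 array. A fit over the 3 populations with population as a block was not made, since populations are not replicates of a genotype. Leaving out a replicate would leave a group with no array. In place of a test, a result was compared with the 2-fold line. Of the members' 2KO over WT ratios under the 8 alternatives, 98 stayed on their side of it, 9 crossed to a called difference and 13 gave no value, since both signals lay under the floor; 2 of these 13 had been called. Car3 crossed in basal epidermis with a floor at the 25th percentile (log2 ratio 1.75) and with no floor (1.42), and in ORS with the lower floor (1.12). Car13 crossed in basal epidermis with arrays scaled to a common median (-1.09) or to the hybridisation controls (-1.08) and with the mean over all probe sets (-1.12). The other 3 were of Car6. The 2 called ratios that gave no value were those of Car3 in matrix with the mean over probe sets and of Car2 in ORS with the floor at the 75th percentile. The remaining ratios called kept their direction and their call. Between populations 2 called ratios, both of Car3, gave no value with the mean over probe sets, and 4 were no longer called, 3 of them of Car12 with the mean over probe sets.

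Counts over all genes moved more. Higher and lower genes in basal epidermis numbered 760 and 471, with 1637 and 828 at the 25th percentile floor, 235 and 235 at the 75th and 1661 and 832 with no floor. In matrix 1053 and 189 became 2149 and 436, 311 and 79, and 2040.0 and 476. In ORS 979 and 570 became 1834 and 935, 337 and 282, and 1762 and 918. Scaling to a common median gave 691 and 632 in basal epidermis, 711 and 574 in matrix and 641 and 999 in ORS, and scaling to the hybridisation controls 642 and 586, 464 and 2131, and 764 and 797. Those scalings moved the median log2 ratio of matrix to -0.24 and -0.58 and that of ORS to -0.23 and -0.14. Signals near the floor of 83.2 limit what can be said of Car3 in WT and of Car4, Car6, Car8 and Car14.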

Other observations

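Marker lists of other cell types not described above gave these values. Of 10 melanocyte genes 6, 10 and 8 were measured in basal epidermis, matrix and ORS. In each population 1 was lower in 2KO and 0 were higher, with summed signals between 1171 and 3983. Of 9 genes of endothelial cells, which can carry Car4, 1 of the 7 measured in ORS was higher, with sums between 515 and 1252 on the 6 arrays. Of 3 nerve and glia genes 1, 2 and 1 were higher in basal epidermis, matrix and ORS. Immune genes were lower in 3 of 9 and fibroblast genes higher in 1 and lower in 1 of 8 in basal epidermis. In ORS 1 immune gene was higher and 1 lower of 8, and 1 of 9 fibroblast genes was higher. Shares over all measured genes were 6.59%, 9.03% and 8.16% higher and 4.09%, 1.62% and 4.75% lower in basal epidermis, matrix and ORS.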
